A study of Mus musculus with 11 samples.

Results

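Replication-dependent histone genes were followed by class in primary neurospheres from mouse embryos at E15.5. They were taken as the rows of the expression table whose symbols start with Hist1h, Hist2h, Hist3h or Hist4h. Of 53453 rows, 70 carried such a symbol, and 65 of these reached at least 1 TPM (a share of all transcripts, in parts of 1000000, that is corrected for transcript length) in 5 or more of the 11 libraries. The 65 genes comprised 5 of class H1, 18 of H2a, 18 of H2b, 12 of H3 and 12 of H4. By position, 52 lay in the Hist1 cluster on chromosome 13, 10 in Hist2 on chromosome 3 and 3 in Hist3 on chromosome 11.

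Neurospheres are balls of dividing neural stem cells and their progenitors that grow in suspension, here from embryonic brain. RNA was sequenced in 5 libraries from embryos with Klf5 overexpression and in 6 libraries from control embryos with no treatment. Klf5 encodes a Kruppel-like transcription factor; the labels do not say by which promoter or vector it was overexpressed, nor do they give the strain of the embryos. Because as many embryos as libraries are counted in the labels, a library was taken as 1 embryo; whether cultures were pooled is not stated.

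Replication-dependent histone genes encode the core histones H2A, H2B, H3 and H4, around which DNA is wound in the nucleosome, and the linker histone H1, which binds the DNA between nucleosomes. Their messenger RNAs accumulate in S phase, when new DNA has to be packaged, and carry no introns. In place of a poly(A) tail they end in a conserved stem-loop, which the stem-loop binding protein Slbp recognises and which directs cleavage of the transcript. Library methods that select RNA by its poly(A) tail recover them poorly.

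The stem-loop is shown for genes that the results return to, because it is the feature that sets these transcripts apart from other messenger RNAs. Sequences are from GENCODE M21 transcripts (GRCm38), and capitals mark the stem-loop itself.
Hist1h1c (H1, chr13:23739507-23739532, plus strand): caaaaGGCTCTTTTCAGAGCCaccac
Hist1h2ag (H2a, chr13:22042478-22042503, minus strand): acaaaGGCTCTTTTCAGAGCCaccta
Hist1h2bg (H2b, chr13:23571838-23571863, plus strand): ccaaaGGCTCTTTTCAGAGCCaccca
Hist1h3e (H3, chr13:23561898-23561923, minus strand): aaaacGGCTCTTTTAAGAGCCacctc
Hist1h4j (H4, chr13:21735432-21735457, plus strand): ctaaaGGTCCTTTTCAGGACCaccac
Hist1h4f (H4, chr13:23551286-23551311, minus strand): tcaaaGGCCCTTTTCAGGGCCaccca
Hist3h2a (H2a, chr11:58955167-58955192, plus strand): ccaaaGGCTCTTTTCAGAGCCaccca

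A stem-loop was found in the transcript models of 44 of the 65 genes. The core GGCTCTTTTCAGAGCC stood in 26 of them, namely 3 H1, 10 H2a, 8 H2b and 5 H3 genes, and in 0 of the H4 genes. Of the 11 H4 genes with a stem-loop, 6 had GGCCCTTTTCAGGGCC, which was found in no gene of another class. The core of Hist1h3e, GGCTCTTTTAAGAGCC, was shared by 3 H3 and 2 H2b genes.

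Promoters of 57 of the 65 genes were matched in RefSeq (GRCm38.p6), each from 250 bases before to 50 bases after the RefSeq start. This start can differ from the GENCODE start. For Hist1h2ao the window ends at 21810416, before the GENCODE start at 21810465. CCAAT on either strand was present in 49 of 57 (86.0%), against 37.4% of all 32851 promoters of that length, and TATAAA on either strand in 32 (56.1%), against 13.6%. All 46 promoters of H1, H2a, H2b and H3 genes held CCAAT, that is 4, 17, 15 and 10, while 3 of 11 H4 promoters (27.3%) did. TATAAA stood in 8 of the 11 H4 promoters and in 7 of the 15 H2b promoters. A match anywhere in the window counted. Counted from the RefSeq start, TATAAA lay at -250 in Hist1h4f, -32 in Hist1h4d and 41 in Hist1h4a. In Hist1h2ae, Hist1h2bf, Hist1h2bk, Hist1h2bn and Hist1h2bp it stood on the other strand only. Windows of neighbouring H2a and H2b genes on opposite strands can overlap, so the same match can count for both genes. The promoters of the 2 genes that passed the test and of Hist3h2a, whose log2 difference was near 0, are given 5′ to 3′ along the gene, with each match to CCAAT or to TATAAA in capitals; a match on the other strand appears as its reverse complement, such as ATTGG.
Hist1h2ag (chr13:22042900-22043199, minus strand): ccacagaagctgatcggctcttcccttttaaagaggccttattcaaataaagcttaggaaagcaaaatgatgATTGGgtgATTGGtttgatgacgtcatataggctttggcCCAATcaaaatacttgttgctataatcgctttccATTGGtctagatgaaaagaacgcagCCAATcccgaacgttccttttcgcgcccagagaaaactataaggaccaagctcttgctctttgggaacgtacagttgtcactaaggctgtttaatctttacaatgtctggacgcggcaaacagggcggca
Hist1h2ah (chr13:22035594-22035893, minus strand): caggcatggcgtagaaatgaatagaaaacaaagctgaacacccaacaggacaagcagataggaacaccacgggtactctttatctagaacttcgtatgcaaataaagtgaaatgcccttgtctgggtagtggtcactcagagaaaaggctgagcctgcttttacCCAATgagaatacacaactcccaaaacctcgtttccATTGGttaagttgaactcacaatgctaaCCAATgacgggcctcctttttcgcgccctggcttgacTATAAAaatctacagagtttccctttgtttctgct
Hist3h2a (chr11:58954435-58954734, plus strand): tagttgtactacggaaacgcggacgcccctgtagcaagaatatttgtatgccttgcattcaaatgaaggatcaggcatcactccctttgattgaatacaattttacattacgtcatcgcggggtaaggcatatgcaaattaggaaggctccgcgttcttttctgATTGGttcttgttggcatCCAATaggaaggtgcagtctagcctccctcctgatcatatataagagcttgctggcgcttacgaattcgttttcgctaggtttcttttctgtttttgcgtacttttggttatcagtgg
Hist1h2ag held 5 CCAAT matches and no TATAAA, Hist1h2ah 3 CCAAT and 1 TATAAA, and Hist3h2a 2 CCAAT and no TATAAA. A match describes these letters and is not a binding site shown here.

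Klf5 itself stood at 75.8 ± 18.5 TPM in the 5 overexpression libraries and at 0.849 ± 0.297 TPM in the 6 controls (mean ± SD). Its log2 fold change was 5.36 ± 0.19 (SE; limma adjusted p = 9.08e-11; two-sided exact permutation p = 0.00216 over 462 splits), so the libraries matched their labels. The deposited values of a library added up to 730832 to 821967 TPM with overexpression and 814208 to 846780 TPM in controls, and rows that resemble ribosomal RNA took 5.94 to 15.2% and 9.59 to 17.2% of these totals. Of 9 markers of neural stem and progenitor cells all were tested, and their summed level was 3676 to 5635 TPM with overexpression and 4592 to 7647 TPM in controls. Hes1 and Vim were called higher among them, and Msi1 and Slc1a3 lower. Markers of microglia, endothelial, erythroid and mural cells summed to at most 3.14, 1.06, 0.833 and 8.72 TPM in any library. For 7 markers of postmitotic neurons the sum was 246 ± 44.8 TPM in overexpression libraries (SD, n = 5) and 293 ± 38.4 TPM in control libraries (SD, n = 6). The groups overlapped and none of the 7 was called, but all 7 log2 differences lay below 0, with a median of -0.38. Their part in the histone values was not tested.

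With Klf5 overexpression, transcripts of most histone genes stood lower than in controls, and the 2 genes that passed the test both belonged to class H2a. The 65 genes together averaged 1254 ± 274 TPM over overexpression libraries (SD, n = 5) and 1632 ± 234.5 TPM over control libraries (SD, n = 6), a ratio of 0.769. On the log2(TPM + 1) scale, 59 of the 65 differences lay below 0, with a median of -0.42, whereas 57.6% of all 13549 tested genes lay below 0, with a median of -0.039. By limma with Benjamini-Hochberg adjustment over all tested genes at 0.05, 2 of 65 were called lower and 0 higher, where the background is 1.43% of genes called lower, 2.29% called higher and 3.72% either way. At an unadjusted limma p under 0.05, 23 of 65 were lower, against 6.72% of all tested genes.

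The sum of the 65 genes was 981.5, 1453, 1538, 1356 and 944 TPM in overexpression libraries 1 to 5, against a lowest control of 1367, a median control of 1576 and a highest control of 1975 TPM. Overexpression libraries 1 and 5 were far below every control, library 4 lay just under the lowest control, and libraries 2 and 3 lay within the range of the controls. Libraries 1 and 5 held the lowest value of all 11 libraries for 22 and 26 of the 65 genes. Among controls, library 5 held the highest value for 25 genes, and libraries 3 and 4 for 12 each. In overexpression libraries 1 to 5, 60, 41, 41, 50 and 62 of the 65 genes lay below their control mean. In controls this number ran from 11 in library 5 to 58 in library 2. Histone genes thus moved together within a library, and the 59 of 65 differences below 0 are not separate observations.

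Libraries 1 and 5 were left out in a further fit. They were chosen for their low histone values, so a shift towards 0 follows from the choice; no such choice was made among the controls. Without both, the ratio of the sums was 0.888, the median log2 difference -0.14 with 41 of 64 tested genes below 0, and no histone gene was called; 189 genes overall were still called higher and 127 lower. In bulk RNA, fewer cells in S phase and less histone RNA per cell cannot be told apart.

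**Figure D1:**
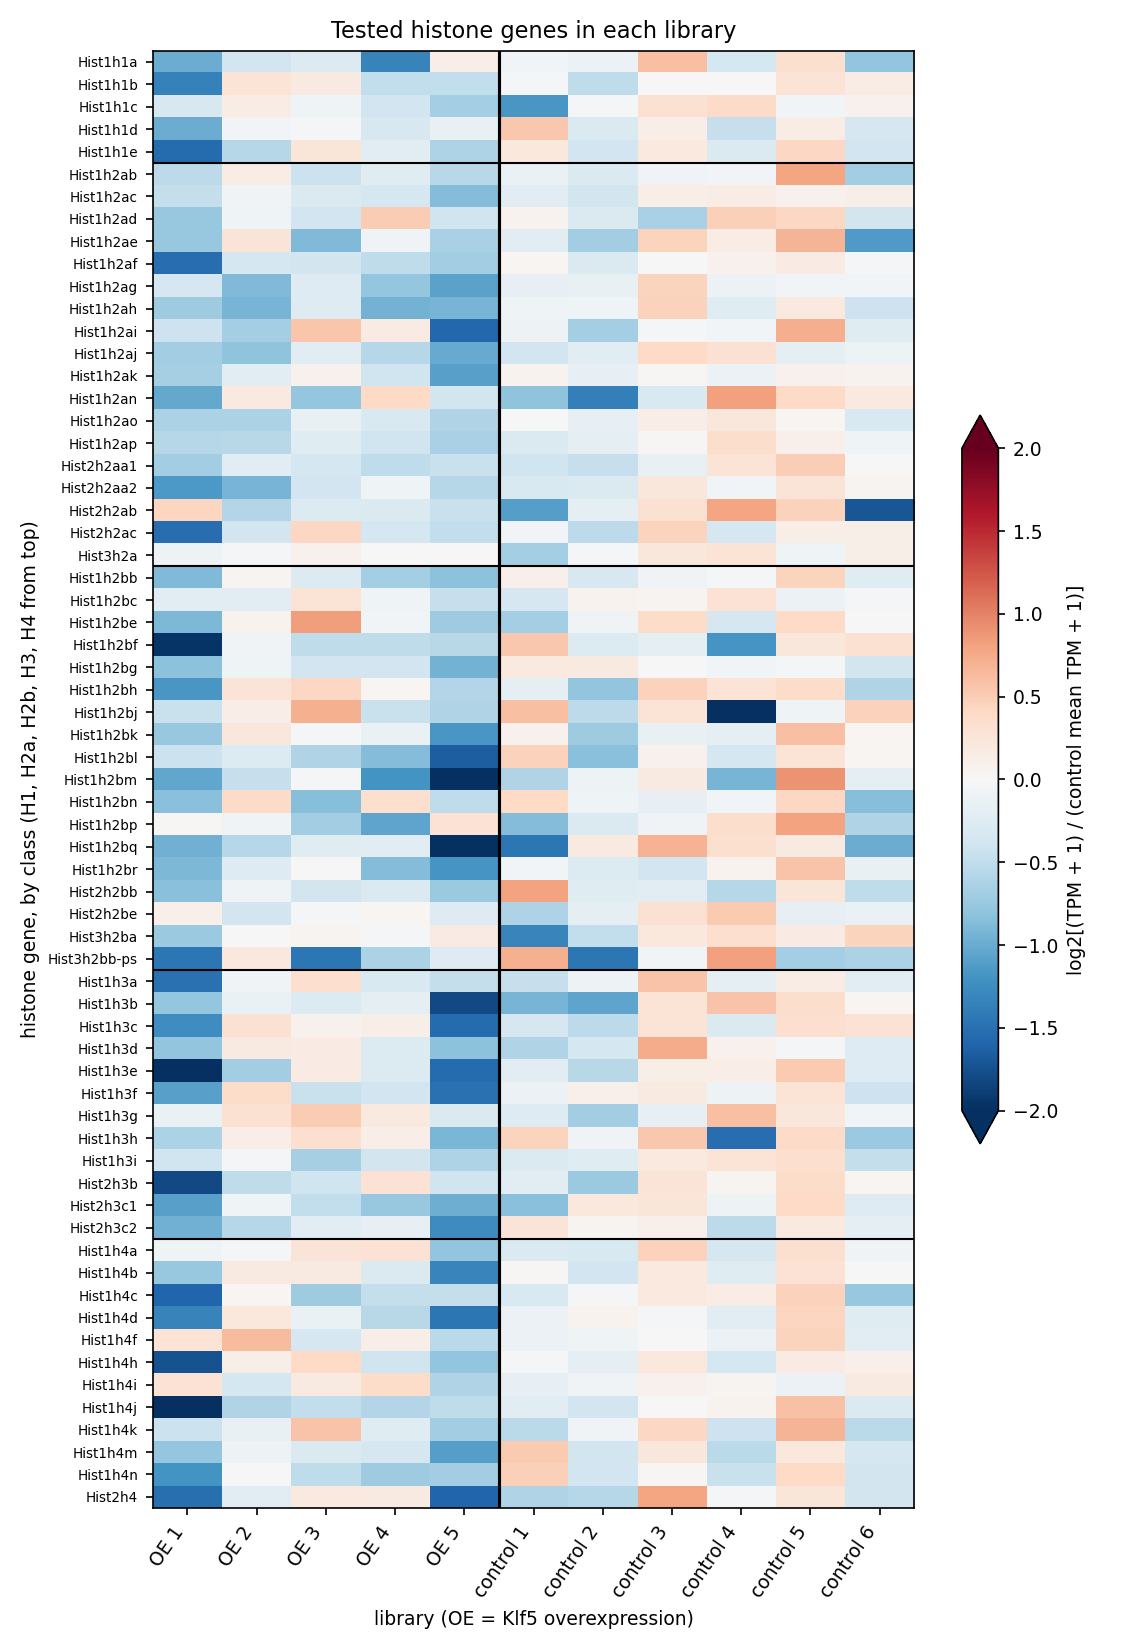
Level of each of the 65 histone genes (rows, by class) in each library (columns, overexpression left of the line), as the log2 ratio of TPM + 1 to the control mean + 1. Columns 1 and 5 of the overexpression group are blue in nearly all rows, while columns 2 to 4 are mixed except in many H2a rows.

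Class by class, H2a showed the lowest ratio of sums and H4 the highest. The median log2 difference gave another order. It was -0.4712 for H4, -0.4659 for H3, -0.4155 for H2a, -0.3594 for H1 and -0.3498 for H2b. The H2a sum averaged 465 ± 69.7 TPM over overexpression libraries (SD, n = 5) and 642 ± 92.1 TPM over control libraries (SD, n = 6), a ratio of 0.725. H2b genes summed to 251 ± 58.3 TPM against 325 ± 47.2 TPM, a ratio of 0.772, and H3 genes to 188 ± 67.1 TPM against 243 ± 50.6 TPM, 0.772 as well. H1 genes stood at 96.6 ± 24.0 TPM with overexpression and 119.6 ± 19.7 TPM in controls, a ratio of 0.807. H4 genes stood at 254 ± 68.2 TPM and 302 ± 59.1 TPM, a ratio of 0.842. The groups overlapped in every class, and the differences between classes were not tested.

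The classes differed in how many overexpression libraries were low. For H2a the overexpression libraries 1 to 5 had 408.2, 464.6, 558.5, 505.4 and 388.7 TPM, and the controls ran from 536.8 over a median of 644.0 to 739.3 TPM, so 4 of 5 overexpression libraries lay below every control. For H4 the same libraries had 202.6, 312.8, 321.6, 268.2 and 165.9 TPM, and the controls 252.7 to 397 TPM with a median of 275.1, so only libraries 1 and 5 lay below every control and libraries 2 and 3 lay above the control mean. H3 followed H4, with 111.1 and 117.7 TPM in libraries 1 and 5 and 228.7 to 243 TPM in the other 3, against 187.2 to 309.5 TPM in controls. For H2b and H1, 3 of 5 overexpression libraries lay below every control.

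**Figure D2:**
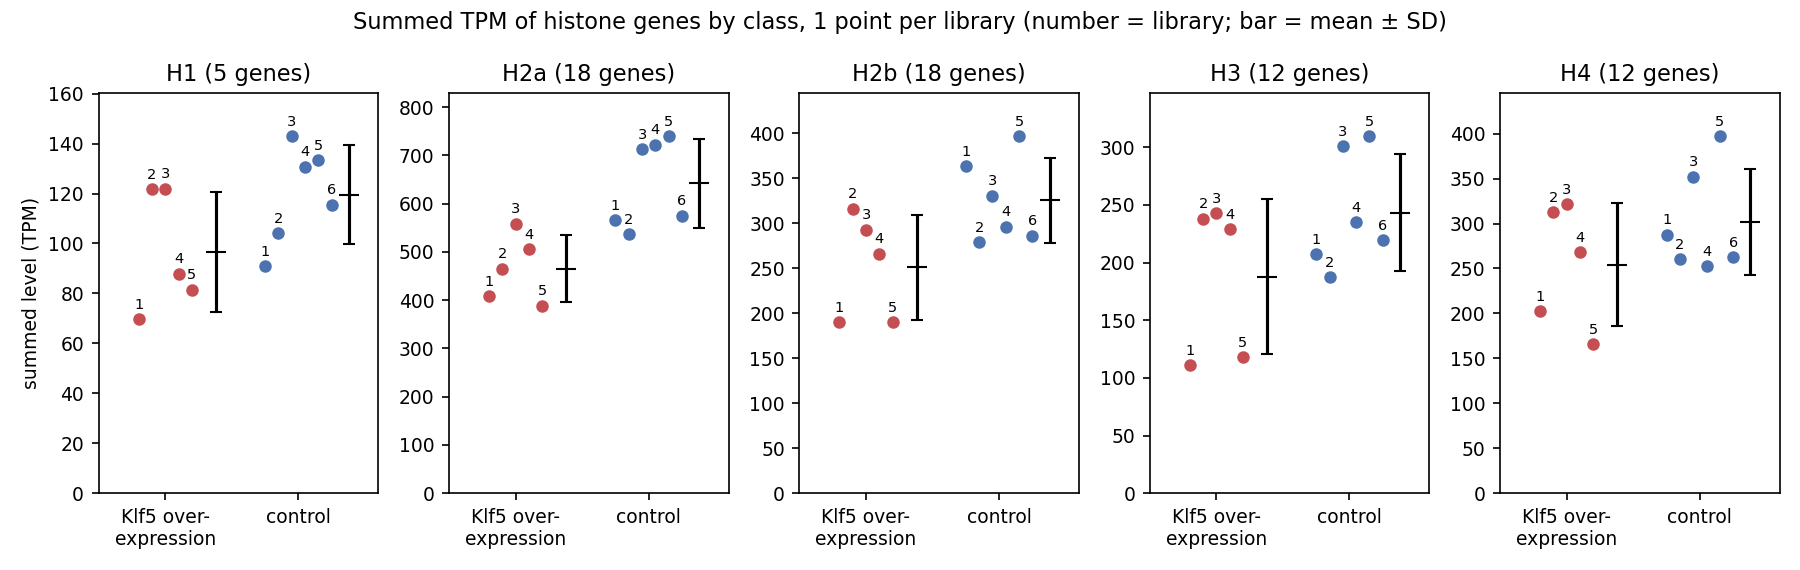
Summed TPM of each histone class, with 1 numbered point per library and the mean ± SD as a bar (n = 5 overexpression, n = 6 control). In the H2a panel overexpression libraries 1, 2, 4 and 5 lie below the lowest control of 536.8 TPM, whereas in the H3 and H4 panels only libraries 1 and 5 lie below the controls.

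Without overexpression libraries 1 and 5, the ratio of sums was 0.794 for H2a, 0.897 for H2b, 0.924 for H1, 0.972 for H3 and 0.996 for H4. The median log2 difference in that fit was -0.20 for H2a, with 14 of 18 genes below 0, and 0.050 for H4, with 5 of 12 below 0. In the fit of all 11 libraries these medians were -0.42 and -0.47, with 16 of 18 and 11 of 12 below 0. Since these 2 libraries were picked as the lowest, the values without them describe the other 3 and are no test of a difference between classes.

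Shares were taken of the summed TPM of the 65 genes, without replication-independent histone genes. H2a made up 37.7% ± 3.94 (SD, n = 5) with overexpression and 39.4% ± 2.49 (SD, n = 6) in controls, and H4 20.1% ± 1.54 and 18.4% ± 1.62. The shares of H2b were 19.98% ± 1.07 and 20.02% ± 2.20, those of H3 14.6% ± 2.50 and 14.8% ± 1.09, and those of H1 7.70% ± 0.90 and 7.34% ± 0.80. Every class kept overlapping shares between the groups. H2a took 32.0% in overexpression library 2 and 41.6 and 41.2% in libraries 1 and 5, so the libraries with the lowest histone sums were not those with the lowest H2a share. Hist1h2al, an H2a pseudogene that did not pass the filter, had 41.88 TPM in library 2 and is left out of these shares.

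**Figure D3:**
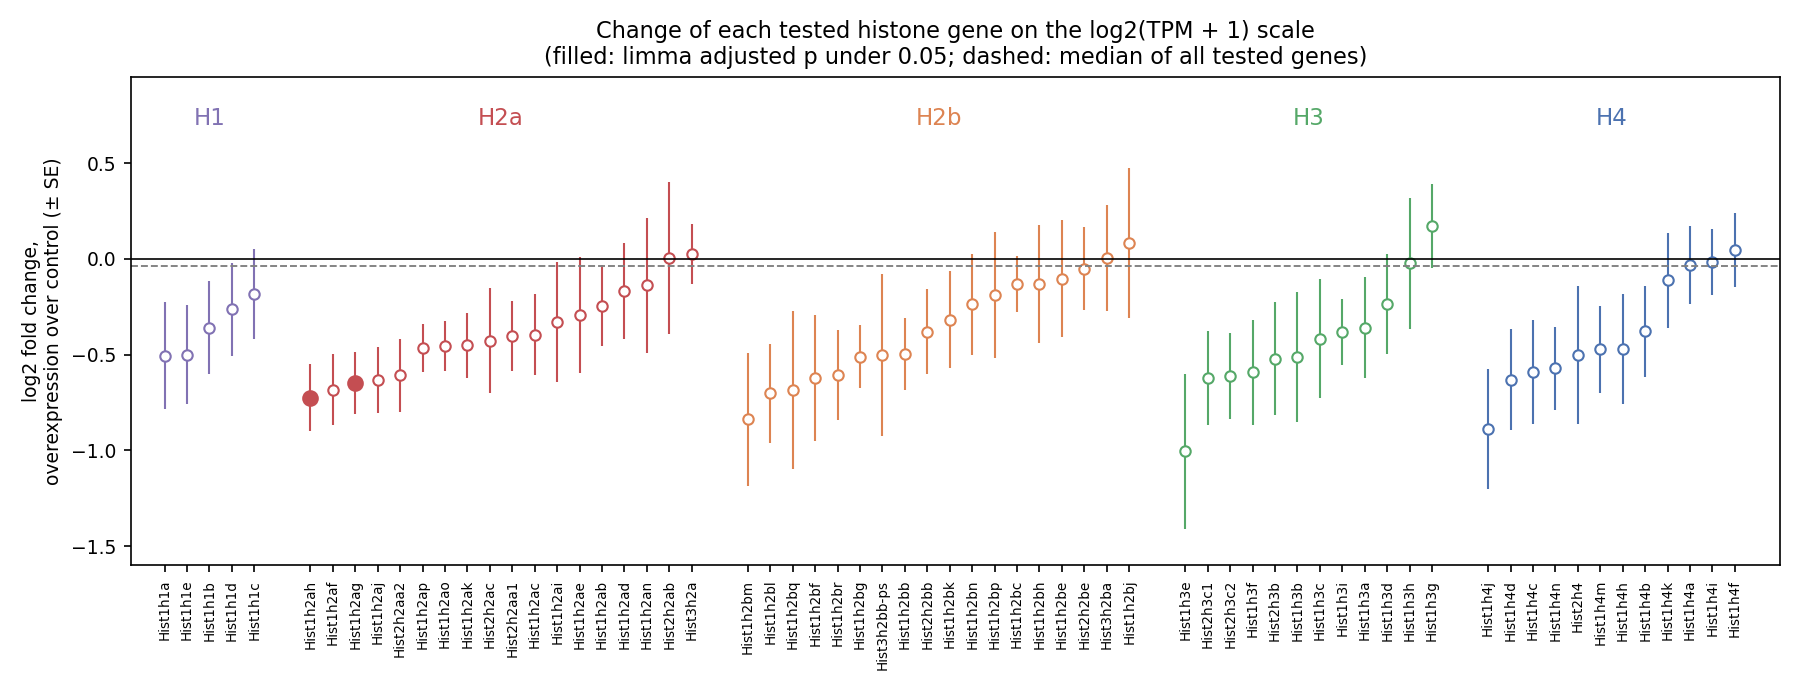
Log2 fold change of each tested histone gene, overexpression over control, on the log2(TPM + 1) scale with its standard error, grouped by class and sorted within it; n = 5 and 6 libraries. The 2 filled points, Hist1h2ah and Hist1h2ag, passed the adjusted threshold, and 59 of 65 points lie below 0.

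Among the H2a genes, whose protein pairs with H2B on the outer faces of the nucleosome, Hist1h2ag (ENSMUSG00000069301, chromosome 13, 22042460 to 22042944, minus strand) had 52.63, 36.07, 55.67, 38.70 and 31.34 TPM in overexpression libraries 1 to 5, against 59.93 to 91.69 TPM with a median of 63.0 in controls. All 5 overexpression libraries lay below all 6 controls. Its log2 fold change was -0.65 ± 0.16 (SE; limma adjusted p = 0.0322) and its ratio of means 0.640. Without overexpression libraries 1 and 5 the value was -0.62, with a limma adjusted p of 0.0870.

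Hist1h2ah (ENSMUSG00000069302, chromosome 13, 22035164 to 22035568, minus strand), the next H2a gene along, had 23.05, 19.55, 32.01, 19.44 and 19.68 TPM with overexpression and 28.40 to 53.17 TPM in controls, with a median of 36.12. Overexpression library 3 overlapped the lowest control, and the other 4 lay below all controls. Its log2 fold change was -0.72 ± 0.17 (SE; limma adjusted p = 0.0255) and its ratio of means 0.593. Without libraries 1 and 5 it was -0.68 (limma adjusted p = 0.150). For both genes the size hardly moved without these 2 libraries, and the call was lost. Library 1 was not low for these genes, at 52.63 TPM for Hist1h2ag and 23.05 TPM for Hist1h2ah. It lay above overexpression libraries 2, 4 and 5 for both. The steady size therefore cannot show that these genes differ apart from libraries with low histone sums.

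The calls of these 2 genes rested on single libraries. Hist1h2ag was called in 13 and Hist1h2ah in 14 of 21 alternative fits, with limma adjusted p from 0.0108 to 0.111 and from 0.00679 to 0.150. Without overexpression library 2, 4 or 5 the limma adjusted p of Hist1h2ag was 0.0936, 0.0874 and 0.0851, and that of Hist1h2ah 0.0747, 0.0776 and 0.0666. Without control library 3 or 5 it was 0.0771 and 0.0571 for Hist1h2ag and 0.0619 and 0.0621 for Hist1h2ah, and without control library 6 it was 0.0572 for Hist1h2ag. The log2 fold changes stayed between -0.75 and -0.55 and between -0.85 and -0.63 whichever library was left out.

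Other H2a genes sat just outside the threshold. Hist1h2ap, the most abundant of the 65 genes, had 101.1, 101.7, 126.7, 114.0 and 95.11 TPM with overexpression and 122.7 to 191.3 TPM in controls, with a log2 difference of -0.47 ± 0.13 (SE; limma adjusted p = 0.0523). Only library 3 reached the range of the controls. Hist1h2af had 13.55, 31.98, 31.50, 28.54 and 24.77 TPM with overexpression and 33.49 to 45.86 TPM in controls, without overlap (-0.68 ± 0.19; limma adjusted p = 0.0547). Hist1h2aj, an unprocessed pseudogene in the annotation, and Hist1h2ao had limma adjusted p of 0.0558 and 0.0710, with ratios of means of 0.632 and 0.728.

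In all, 3 of the 65 genes had every overexpression library below every control, against 1.31% of all tested genes, and 0 had every one above, against 1.99%. These were Hist1h2ag, Hist1h2af and the H4 gene Hist1h4j. The 2 H2a genes with values at or above 0 were Hist2h2ab, at 1.16 to 3.40 TPM with overexpression and 0 to 4.61 TPM in controls, and Hist3h2a.

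In Hist1, 11 H2a genes share long stretches of sequence, so reads could be shared among them in the authors' counting, and their values are uncertain one by one. They are Hist1h2ab, Hist1h2ad, Hist1h2ae, Hist1h2af, Hist1h2ag, Hist1h2ah, Hist1h2ai, Hist1h2aj, Hist1h2an, Hist1h2ao and Hist1h2ap, a group joined gene by gene wherever at least 50% of the 100-base windows of 1 member's longest transcript also occur in another member. Hist1h2ae shares least, with 30.7% of its own windows found in a transcript of another gene. The sum of the 11 genes, which depends less on how shared reads were split among them, was 336, 373.2, 446.5, 410.1 and 311.8 TPM with overexpression and 440.8 to 609.9 TPM in controls. Library 3 alone reached the controls, and the ratio of means was 0.712. Over all classes, the 29 genes with more than 50% of windows in a transcript of another gene had a ratio of 0.733 in sum, and the 12 with under 10% had 0.798. The 29 include Hist2h2bb and Hist2h3c1, each at 100%, and Hist1h4n at 80.7%, whose single values are uncertain too. Hist2h2bb also overlaps Gm42743, and Hist2h3c1 overlaps Gm20634, on the same strand.

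Among the H2b genes, the partners of H2A in the nucleosome, none passed the test. Hist1h2bg (chromosome 13, 23571396 to 23572013, plus strand) had 19.28, 32.62, 26.46, 26.27 and 17.48 TPM with overexpression and 26.54 to 39.95 TPM in controls, with a log2 difference of -0.51 ± 0.16 (SE; limma adjusted p = 0.121). Libraries 1, 3, 4 and 5 lay below every control. Hist1h2bl, at -0.70 ± 0.26, and Hist1h2bm, at -0.84 ± 0.35, were lower by value (limma adjusted p = 0.203 and 0.293). The most abundant, Hist2h2bb, had 29.64 to 50.33 TPM with overexpression and 35.82 to 94.06 TPM in controls, where control library 1 was the highest. Hist1h2bc, at 27.77 to 46.73 TPM and 30.19 to 47.26 TPM, differed by -0.13 ± 0.15 (limma adjusted p = 0.847).

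Among the H3 genes, which with H4 form the core of the nucleosome, Hist1h3e had the lowest log2 difference of all 65 genes; its levels were 3.58, 20.15, 37.32, 27.40 and 10.73 TPM in overexpression libraries 1 to 5 and 22.20 to 48.30 TPM in controls. Library 1 was the lowest of all 11, and library 3 lay above 5 of 6 controls. The log2 difference of -1.01 ± 0.41 (SE; limma adjusted p = 0.273) was -0.22 without libraries 1 and 5. Hist1h3c, the most abundant H3 gene, had 20.48 and 16.45 TPM in libraries 1 and 5 and 52.81 to 61.73 TPM in the other 3, against 34.27 to 63.22 TPM in controls. Its log2 difference of -0.42 ± 0.31 (limma adjusted p = 0.706) was 0.21 without those 2 libraries. Hist2h3c1 and Hist2h3c2, at -0.62 ± 0.25 and -0.61 ± 0.22, and Hist1h3i, at -0.38 ± 0.17, were the H3 genes with the smallest p or among the most abundant, and none passed (limma adjusted p = 0.253, 0.197 and 0.355). Hist1h3g had the highest log2 difference of all 65 genes, 0.17 ± 0.22 (limma adjusted p = 0.879).

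Among the H4 genes, Hist1h4j (chromosome 13, 21735064 to 21735837, plus strand) had 1.46, 7.83, 8.50, 7.86 and 8.40 TPM with overexpression and 9.37 to 19.11 TPM in controls. The groups did not overlap, with library 1 far below the other 4, and the log2 difference of -0.89 ± 0.31 (SE) had a limma adjusted p of 0.178. Hist1h4k, the most abundant H4 gene, had 36.80, 44.97, 74.90, 42.28 and 30.46 TPM with overexpression and 34.11 to 81.00 TPM in controls, a log2 difference of -0.11 ± 0.25 (limma adjusted p = 0.947). Its groups covered almost the same range. Hist1h4b, Hist1h4n and Hist1h4a had log2 differences of -0.38 ± 0.24, -0.57 ± 0.22 and -0.035 ± 0.20 (limma adjusted p = 0.612, 0.225 and 0.987). Hist1h4f was 1 of the 6 genes with values above 0, at 0.047 ± 0.19.

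Among the linker histone genes, all 5 H1 differences lay below 0 and none passed the test. Hist1h1c, the most abundant, had 48.20, 66.93, 56.87, 46.03 and 37.00 TPM with overexpression and 26.34 to 78.92 TPM with a median of 61.69 in controls. Control library 1 was the lowest of all 11, so the groups overlapped throughout, and the log2 difference was -0.18 ± 0.23 (SE; limma adjusted p = 0.879). Hist1h1a, Hist1h1e and Hist1h1b had -0.51 ± 0.28, -0.50 ± 0.26 and -0.36 ± 0.24 (limma adjusted p = 0.525, 0.472 and 0.660). Hist1h1e overlaps Hist1h2be on the same strand, so reads of these genes may be mixed.

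By cluster, the Hist3 genes had the ratio of sums nearest to 1. The Hist1 sum averaged 1097 ± 249.9 TPM over overexpression libraries (SD, n = 5) and 1429 ± 209.6 TPM over control libraries (SD, n = 6), a ratio of 0.767, and the Hist2 genes to 109 ± 25.2 TPM and 152 ± 26.3 TPM, a ratio of 0.719. The Hist3 genes summed to 48.8 ± 6.51 TPM and 51.1 ± 14.1 TPM, a ratio of 0.955. Control library 1 was low for Hist3, at 27.89 TPM against 41.35 to 65.06 TPM in the other controls. With any 1 library left out, the ratio ran from 0.8755 to 1.011 for Hist3. It ran from 0.7213 to 0.8195 for Hist1 and from 0.6789 to 0.7777 for Hist2. Some Hist1 genes also had ratios of means near 1, such as Hist1h4i at 1.02 and Hist1h4f at 1.068. The difference between clusters was not tested, and Hist3 holds 3 genes only.

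Hist3h2a (chromosome 11, 58954685 to 58956830, plus strand) had 23.25, 24.63, 26.57, 25.18 and 24.72 TPM with overexpression, and 15.22 to 30.23 TPM with a median of 25.71 in controls. Libraries 1 and 5, lowest for most histone genes, were level with the others, and the log2 difference was 0.024 ± 0.16 (SE; limma adjusted p = 0.989). Hist3h2ba had 14.10 TPM in overexpression library 1 and 24.11 to 27.42 TPM in the other 4, against 9.20 to 33.40 TPM in controls, with 0.0029 ± 0.28 (limma adjusted p = 0.999). The signs of both genes turned with array weights and without control library 1. With any 1 library left out, the sign turned in 6 of 11 fits for Hist3h2ba and in 1 of 11 for Hist3h2a. Hist3h2a overlaps Trim17 on the same strand, at a mean of 8.46 TPM. Hist3h2bb-ps, a pseudogene, was near the detection filter at 0 to 2.15 TPM with overexpression and 0 to 3.82 TPM in controls, with -0.50 ± 0.42 (limma adjusted p = 0.760). In the model of Hist3h2a the transcript runs on for 1643 bases past the stem-loop shown above.

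Within Hist2, all 10 genes but Hist2h2ab lay below 0. Of its classes, the 4 H2a genes had a ratio of sums of 0.712, the 2 H2b genes 0.748 and the 3 H3 genes 0.681. In Hist1 the ratio was 0.714 for 13 H2a genes, 0.762 for 14 H2b, 0.787 for 9 H3 and 0.844 for 11 H4 genes. H2a was thus lowest in Hist1 and not in Hist2.

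Along chromosome 13 the Hist1 genes fall into 2 blocks, from 21715763 to 22043676 with 24 tested genes and from 23531050 to 23764406 with 28, separated by 1487 kb. The first block summed to 599 ± 115.1 TPM with overexpression and 806 ± 113.5 TPM in controls (ratio 0.744), and the second to 497 ± 141.8 TPM and 623 ± 97.9 TPM (ratio 0.798). In the first block 4 of 5 overexpression libraries lay below every control, in the second 2 of 5. Both called genes lie at the end of the first block. The tested histone genes next to them in order were Hist1h2br at -0.61 ± 0.23, Hist1h2bk at -0.32 ± 0.25, Hist1h4i at -0.015 ± 0.17 and Hist1h2bj at 0.083 ± 0.39, and none was called. H2a had ratios of 0.708 in the first block and 0.739 in the second, and H4 0.814 and 0.871.

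**Figure D4:**
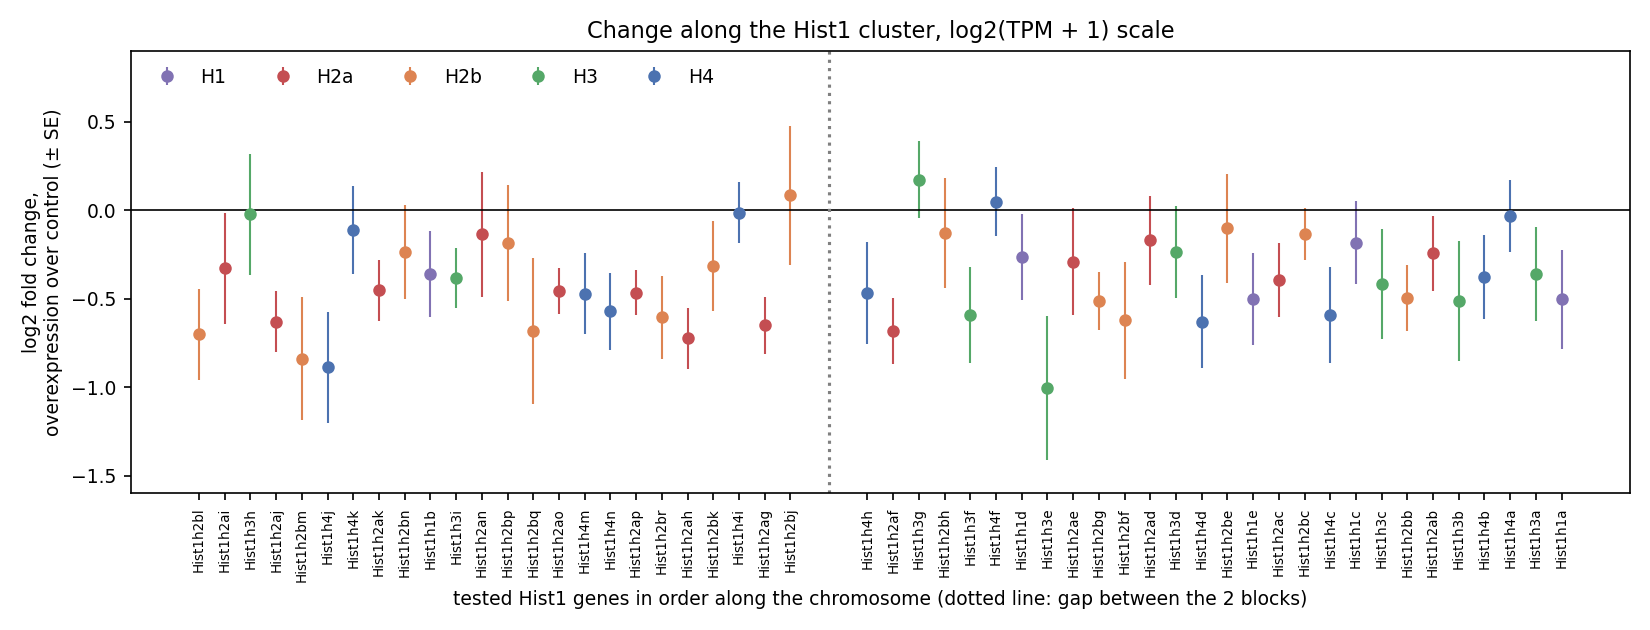
Log2 fold change, overexpression over control, of the 52 tested Hist1 genes in their order along the chromosome, on the log2(TPM + 1) scale with standard errors and coloured by class. Most points of both blocks lie below 0, and some neighbours differ widely, as with Hist1h2ag at -0.65 beside Hist1h4i at -0.015.

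Many H2a and H2b genes are arranged head to head and start from a shared stretch of DNA, which allowed both genes of 1 promoter region to be set side by side. There were 14 such pairs with 173 to 306 bases between their starts, and in 13 both genes were tested. The promoter window of Hist1h2ah, printed above, and that of Hist1h2bk (chr13:22035571-22035870, plus strand) cover almost the same bases on opposite strands. Hist1h2ah averaged 31.2 TPM over all libraries and Hist1h2bk 17.8 TPM, with log2 differences of -0.72 and -0.32. Hist1h2ag and its partner Hist1h2bj averaged 56.0 and 12.9 TPM, with -0.65 and 0.083.

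The H2a gene was the more abundant in 10 of the 13 pairs. Ratios of H2a to H2b ran from 0.0627 for Hist1h2ac and Hist1h2bc to 18.8 for Hist3h2a and Hist3h2bb-ps, a pseudogene near the filter. TPM is corrected for transcript length, and partners can differ in the length of their models. The longest has 2482 bases in Hist1h2ac and 1156 in Hist1h2bc, and 482 in Hist1h2ap and 2197 in Hist1h2br. The part of model length in these ratios was not tested. Both partners lay below 0 in 11 pairs. Across the 13 pairs, which share libraries, the Pearson correlation of the log2 differences was -0.14 and that of the log2 levels -0.18.

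Transcript models of 20 genes end at the stem-loop, those of 24 run on at least 50 bases past it, and 21 hold no stem-loop. The sums of these kinds had ratios of 0.7498, 0.800 and 0.766. For the 11 genes whose models run on 500 bases or more, the sum was 135 ± 34.0 TPM with overexpression and 165 ± 31.6 TPM in controls, a ratio of 0.819. All kinds overlapped between the groups, and whether reads came from the stretch past the stem-loop cannot be read from values per gene.

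The summed level of other RNAs without a poly(A) tail was lowest in the same 2 overexpression libraries, though most of these RNAs singly were not. The 14 such RNAs listed, led by the 7SL RNAs Rn7s1 and Rn7s2 and the 7SK RNA Rn7sk, summed to 1477, 4165, 2826, 2714 and 1405 TPM in overexpression libraries 1 to 5 and to 2014, 1761, 4753, 2898, 3955 and 3745 TPM in control libraries 1 to 6. Libraries 1 and 5 were the lowest of all 11, overexpression library 2 was high, and among controls libraries 3 and 5 were the highest, as they were for histones. Singly, Rn7sk was lowest in overexpression libraries 1 and 5, at 347.7 and 585.8 TPM. Rn7s1, Rn7s2 and Rmrp were lowest in control library 2, at 276.2, 287.7 and 120.8 TPM. Rpph1, Scarna2 and Scarna13 were lowest in overexpression library 3, control library 1 and control library 4. Of the 7 tested, all lay below 0 with a median log2 difference of -0.31, and 0 were called in either direction. Rpph1, the RNA of ribonuclease P, and Rn7sk had the smallest p, at 83.4 ± 51.9 TPM and 129 ± 51.0 TPM, and at 884 ± 451.5 TPM and 1101 ± 342.7 TPM (limma adjusted p = 0.330 and 0.704). The part of RNA selection or library kit in the histone values was not tested, since the labels do not say which library was made with which kit.

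**Figure D5:**
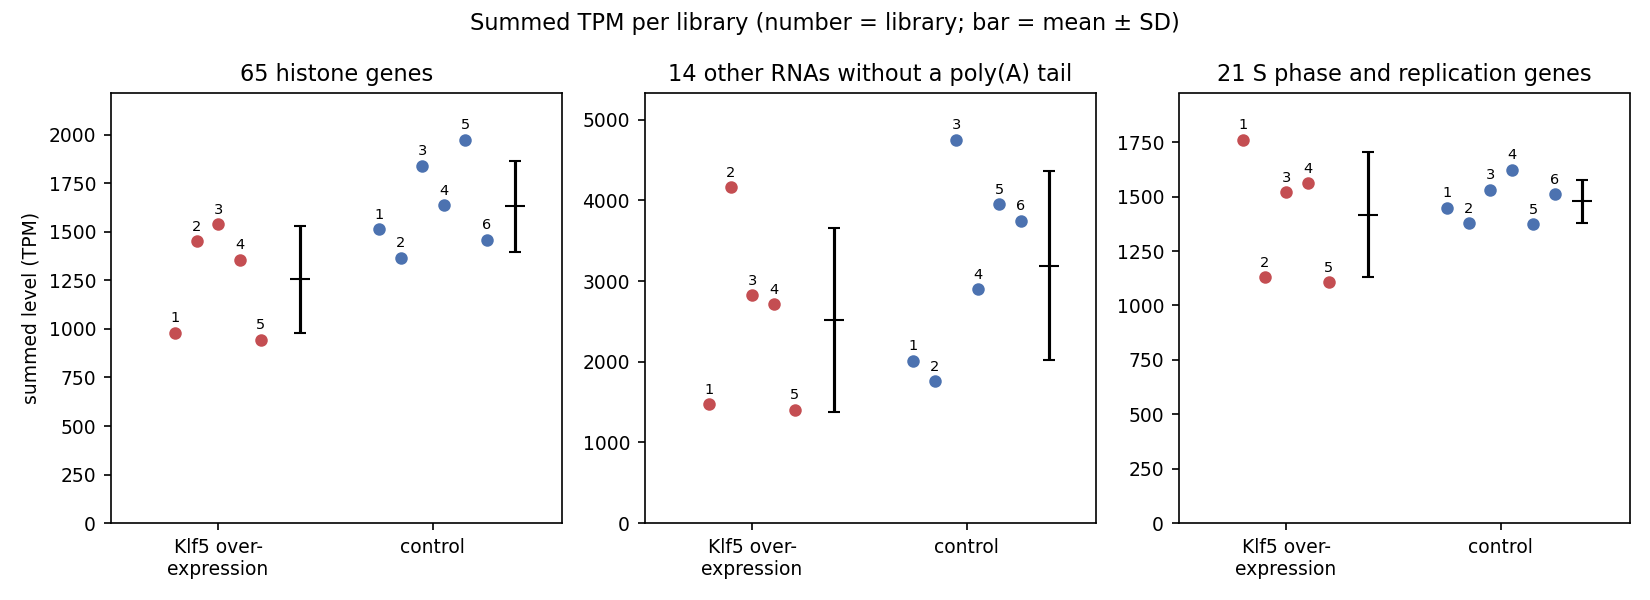
Summed TPM per library of the 65 histone genes, of 14 other RNAs without a poly(A) tail and of 21 S phase and replication genes, with numbered points for libraries and mean ± SD as a bar (n = 5 overexpression, n = 6 control). Overexpression libraries 1 and 5 are lowest in the first and second panels, whereas library 1 is highest of all in the third, at 1762 TPM.

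Genes of S phase and DNA replication did not share the pattern of library 1. The 21 genes, all tested, summed to 1762, 1130, 1520, 1561 and 1108 TPM in overexpression libraries 1 to 5 and to 1373 to 1624 TPM in controls. Library 1 was the highest of all 11 and libraries 2 and 5 the lowest, so libraries 1 and 5, alike in their histone level, stood at opposite ends. The median log2 difference was -0.081, with 17 of 21 below 0 and 0 called in either direction. Ccne1, cyclin E1, which drives entry into S phase and activates the histone gene regulator Npat, had 13.9 ± 2.14 TPM over overexpression libraries (SD, n = 5) and 20.1 ± 2.18 TPM over controls (SD, n = 6), without overlap of the groups (limma adjusted p = 0.0578). Ccne1 was called with trimmed-mean scaling, quantile normalization, array weights and without ribosomal RNA-like rows (limma adjusted p = 0.0265, 0.0201, 0.0321 and 0.0325). These were 4 of 10 fits with other settings, in which the limma adjusted p reached 0.263. With any 1 library left out it was called in 0 of 11 fits (limma adjusted p from 0.0548 to 0.150). Mcm10, a replication initiation factor, had 20.2 ± 3.72 TPM and 16.8 ± 1.64 TPM (limma adjusted p = 0.566).

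The machinery that makes histone transcripts and handles the proteins held no called gene. Of 13 tested genes for 3′ processing and transcription of histone genes, among them Slbp, Lsm10, Lsm11 and Npat, 0 were called and the median log2 difference was -0.050. Slbp had 60, 32.89, 45.39, 47.87 and 27.19 TPM with overexpression and 39.74 to 55.63 TPM in controls, so it was highest in library 1 and lowest in library 5. The smallest p fell to Sympk, a scaffold of the cleavage complex, and Hinfp, a transcription factor of H4 genes, at 37.6 ± 10.3 TPM and 45.0 ± 11.0 TPM, and at 9.83 ± 5.17 TPM and 7.21 ± 1.87 TPM (limma adjusted p = 0.737 and 0.739). Of 13 histone chaperones 0 were called, with a median of -0.12; Npm1 and Ssrp1 had the smallest p (limma adjusted p = 0.489 and 0.688). Of 14 mitosis genes 0 were called, with a median of -0.066; Ccnb2 and Aurkb had the smallest p (limma adjusted p = 0.235 and 0.628).

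Replication-independent histone genes, most of which give messenger RNAs with poly(A) tails and are not tied to S phase, were set beside them. Of 11 tested, 9 lay below 0 with a median of -0.18, and 0 were called. Their sum was 2672 ± 515 TPM over overexpression libraries (SD, n = 5) and 2832 ± 320 TPM over controls (SD, n = 6), with 3180 TPM in overexpression library 1 and 2150 TPM in library 5. Library 1 was thus near the top of all libraries for these genes and at the bottom for their replication-dependent counterparts. The macroH2A genes H2afy2 and H2afy had the smallest p, at 57.8 ± 10.2 TPM and 73.3 ± 9.05 TPM, and at 60.5 ± 8.67 TPM and 76.6 ± 15.0 TPM (limma adjusted p = 0.237 and 0.335).

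Of 3 tested rows that resemble ribosomal RNA, AY036118 was called higher, at 2302 ± 1132 TPM over overexpression libraries (SD, n = 5) and 460 ± 360 TPM over controls (SD, n = 6) (log2 fold change 2.45 ± 0.41; limma adjusted p = 0.00201). Its highest values were 4000 TPM in overexpression library 5 and 2586 TPM in library 4. Gm26917 and Gm42418 were not called (limma adjusted p = 0.466 and 0.895). The rows of the table left 17.8, 22.7, 19.2, 20.9 and 26.9% of 1000000 TPM unaccounted for in overexpression libraries 1 to 5, and 15.3 to 18.6% in controls. All overexpression libraries but library 1 thus lay above every control. The part of this in the histone values was not tested beyond the rescaling, under which 55 of 65 genes lay below 0 with a median of -0.34 against 0.036 for all genes.

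Of the 70 rows, 5 did not pass the filter. Hist1h1t, Hist1h2aa and Hist1h2ba, which are testis types, were at or near 0, with at most 0.832 TPM in any library. Hist4h4 reached 1 TPM in 2 libraries, with 1.42 TPM in overexpression library 4 and 1.27 TPM in control library 5. Hist1h2al, a pseudogene, was at 41.88 TPM in overexpression library 2 and at 0 to 1.27 TPM in all others. Just inside the filter were Hist3h2bb-ps with 5 libraries, Hist1h2bp with 8 and Hist2h2ab with 9.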

How the data were processed

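The deposited values are TPM, 1 column per library, computed by the authors. Per the submitters' processing notes, HISAT2, StringTie, HTSeq, DESeq2 and the build GRCm38.p5 were used; versions and roles are missing. How reads that match several histone genes were counted, the strand setting, the annotation and the kit of each library are not stated; per the labels' protocols, total RNA and 2 kits were used, read over 151 cycles. TPM keeps no depth, so no counting error is given; precision comes from the spread between libraries. Of 53453 rows, 53255 were matched to symbols.

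The 13549 genes that reached 1 TPM in 5 or more libraries were tested as log2(TPM + 1), with a pseudocount of 1, by limma 3.58.1 (R 4.3.3) with a variance trend, two-sided, with Benjamini-Hochberg adjustment over all of them at 0.05; fold changes on this scale understate those of low genes. The fit was tested on simulated data. Sums by class and cluster, made with Python 3.11.15 and pandas 2.3.3, carry no test. Klf5 was compared by an exact permutation test. Genes and lists were chosen with earlier results of these data known. Named genes are Klf5, each histone gene past the threshold, the 3 most abundant and the 2 of smallest p in each class, all of Hist3 and Hist4, and the 2 of smallest p in each list; other genes named were chosen after their values were seen. Positions and transcripts are from GENCODE M21 (GRCm38). Fits were repeated with a pseudocount of 0.1, without a filter, with one of 5 TPM, the replicate number as a block, array weights, 4 scalings (equal totals, without ribosomal RNA-like rows, trimmed mean with 30% of ratios and 5% of levels trimmed, quantile), each of 11 libraries left out, and, added after seeing the data, overexpression libraries 1 and 5 left out together.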

Additional observations from a re-analysis of the deposited data

Results flagged for a closer look

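In 6 of 72 sets of values checked, 1 library stood apart from the rest of its group by Dixon's criterion, which chance alone gives in about 1 in 20 groups. Hist1h2ag had 91.69 TPM in control library 3, against 59.93 to 64.29 TPM in the other controls. Hist1h2ah had 32.01 TPM in overexpression library 3, against 19.44 to 23.05 TPM in the other 4. Overexpression library 1 was low for Hist1h4j, at 1.462 TPM against 7.833 to 8.504 TPM, for Hist3h2ba, at 14.1 TPM against 24.11 to 27.42 TPM, and for the sum of the Hist3 genes, at 37.35 TPM against 50.04 to 53.43 TPM. Hist1h2al, a processed pseudogene outside the test, had 41.88 TPM in overexpression library 2, against 0 to 0.2189 TPM in the other 4.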

How the results depend on the processing

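The median log2 difference of the histone genes lay between -0.53 and -0.29 with any 1 library left out and between -0.46 and -0.31 with other filters, scalings, weights or pseudocounts; it was -0.14 without overexpression libraries 1 and 5, an alternative chosen after seeing the data. No histone gene was called higher under any alternative. The number called lower, 2, was 0 with no filter, where more genes are tested, and 4 with a filter of 5 TPM, with trimmed-mean scaling and with the replicate block; it ranged from 0 to 6 with any 1 library left out, and was 0 without overexpression libraries 1 and 5.

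Over all genes, 310 higher and 194 lower calls became 254 and 95 with no filter, 434 and 302 with trimmed-mean scaling, 421 and 311 with quantile normalization, and 387 and 161 with equal totals. With any 1 library left out they ranged from 206 to 313 and from 117 to 212, and they were 189 and 127 without overexpression libraries 1 and 5. Ratios of class and cluster sums moved by less than the spread between libraries under every alternative run. That spread is wide, so this does not make the ratios stable. Without overexpression libraries 1 and 5, the H4 ratio went from 0.842 to 0.996 and the H3 ratio from 0.772 to 0.972.

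Single genes changed sign. Hist1h4a, at -0.035, was 0.068 with array weights, 0.044 with equal totals, 0.023 without ribosomal RNA-like rows and 0.0025 with trimmed-mean scaling, and ran from -0.12 to 0.14 with any 1 library left out; Hist1h4k ran from -0.30 to 0.041. Hist3h2a and Hist3h2ba were -0.032 and -0.085 with array weights, and ran from -0.11 to 0.084 and from -0.24 to 0.16. Without overexpression libraries 1 and 5, Hist1h1b was 0.0032, Hist1h3c 0.21, Hist1h4a 0.21, Hist1h4b 0.048, Hist1h4k 0.14 and Rn7sk 0.10; Hist1h1b, Hist1h3c, Hist1h4b and Rn7sk were not near 0 with all libraries, at -0.36, -0.42, -0.38 and -0.43. The cause was not tested.

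Replicate numbers were not treated as pairs in the main fit. Deviations of same-numbered libraries correlated at 0.304, 0.0638, -0.013, -0.0398 and 0.0242. Libraries of unlike number were not compared in this way, so these values cannot decide whether the numbers pair the libraries. With the replicate block, on 10 libraries, 288 genes were called higher and 138 lower and 4 histone genes lower, against 277, 129 and 2 in the same libraries without it. Genes near 1 TPM are limited most by the unknown depth.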
